A study of Mus musculus with 48 samples.

Results

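The effect of the Q140 allele on cortical gene expression was read in mice labelled Msh3-/-, by setting 8 libraries from heterozygous Q140 knock-in mice labelled Msh3-/- against 8 libraries from mice labelled Msh3-/- without the knock-in. Both groups therefore carry the Msh3-/- label and differ by label only in Q140. The 16 libraries were taken by their genotype labels out of 48 in all, and 19547 of 48795 genes in the table had enough counts to be tested. Each group had 4 females and 4 males on a C57BL/6 background, and the tissue and age labels give cerebral cortex at 12 months. The other 32 libraries, used here for comparison, were wild type, Q140, Msh3+/- and Q140 with Msh3+/-, with 8 in each group. Q140 was compared with its control inside each of the 3 Msh3 genotypes, and these comparisons share no library.

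The Q140 allele is a knock-in at the mouse Htt gene that carries an expanded CAG repeat, the type of mutation that causes Huntington disease. MSH3 is a mismatch repair protein that recognises small DNA loops and is known to drive the lengthening of CAG repeats in body tissues, including neurons, during life. The comparison asks which expression differences accompany Q140 when both groups carry the genotype labelled as lacking Msh3.

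Library totals ran from 40.1 to 60.5 M counts over the 16 libraries, with a median of 52 M. Levels are given in CPM, counts scaled to 1 M of the normalised library total, and are not divided by gene length. Markers of cortical projection neurons were abundant, with Slc17a7 at 1280 to 1500 CPM and Tbr1 at 168 to 204. The striatal markers Drd1 and Adora2a had 4.3 to 6.94 and 1.63 to 2.3 CPM. One protocol label speaks of striatal tissue at a younger age. These levels go against striatal tissue and do not bear on age. Of 13 libraries in the series that stood apart in pituitary or choroid plexus genes, 1 belonged to this comparison, male 4 labelled Msh3-/-. Further ones without Q140 were wild type F4, M2, M3 and M4 and Msh3+/- F1, F4, M1, M2 and M3. Those with Q140 were Q140 M2 and Q140 with Msh3+/- F4 and M1. By the well addresses in the labels, 7 of 8 Q140 libraries labelled Msh3-/- lay in rows A to D and 7 of 8 controls in rows E to H, and the groups shared 2 rows. A fit over all 48 libraries with a term for plate row called the same 4 genes.

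The Msh3 count goes against a simple loss of transcript and is given first. Msh3 (ENSMUSG00000014850, GRCm38 chromosome 13, 92211872 to 92355003) ranged from 20.5 to 23.5 CPM in wild-type libraries. In the libraries labelled Msh3-/- it ranged from 84.2 to 108 CPM, with a median of 98.3, and in Q140 libraries labelled Msh3-/- from 83.2 to 110 CPM, with a median of 96.1. All 16 libraries lay above every wild-type library, so they are set apart by this gene, but in the direction opposite to a loss. Which part of the gene was deleted is not given in the sources used here, so the count does not check whether functional transcript is absent, and Msh3-/- below always means the label. Between the 2 groups Msh3 had a log2 fold change of -0.06 ± 0.040 (SE, edgeR adjusted p = 0.793). Htt itself (ENSMUSG00000029104, chromosome 5, 34761740 to 34912534) had 252 ± 15 CPM (SD, n = 8) in the controls and 251 ± 12.2 CPM with Q140. Its log2 fold change was -0.00 ± 0.036, with a 95% interval from -0.07 to 0.07. A count per gene does not see the repeat, so this level does not check the Q140 label either.

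With Msh3-/- in both groups, Q140 came with higher Abhd1, Gm2420 and Tmc3 and lower Atraid. These were the only genes called, meaning an adjusted p under 0.05 in edgeR's quasi-likelihood test with Benjamini-Hochberg adjustment over all 19547 genes. They make up 0.0205% of the genes tested. Before adjustment, 1323 genes had a p under 0.05, 647 higher (3.31%) and 676 lower (3.46%). The median log2 fold change over all genes was -0.001.

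Abhd1 (ENSMUSG00000006638, chromosome 5, 30950066 to 30955091) belongs to the family of alpha/beta hydrolase fold proteins. The annotation used lists the gene as a processed transcript, not as protein-coding. It had 2.4 CPM in the lowest control library, a median of 3.03 and 3.64 in the highest. With Q140 the lowest library had 5.66 CPM, the median was 6.73 and the highest 7.74. Every Q140 library was above every control. Only 5 genes (0.0256%) had groups that did not overlap, in either direction. The log2 fold change was 1.16 ± 0.094 with an edgeR adjusted p of 1.01e-12. In the other genotypes it was 1.01 ± 0.096 with Msh3+/+ and 1.35 ± 0.099 with Msh3+/-. Abhd1 overlaps Preb on the opposite strand, and Preb had a log2 fold change of -0.003 here. How strand was handled in counting is not given in the sources used here, so genes that overlap on opposite strands may share reads.

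Gm2420 (ENSMUSG00000082305, chromosome 5, 32720330 to 32736194) is annotated as a transcribed unprocessed pseudogene. Reads of such a copy can be shared with related loci. Its raw counts ran from 0 to 6 in the control libraries, 2 of which had 0, and from 12 to 37 in the Q140 libraries. In CPM the controls ran from 0 to 0.141 and the Q140 libraries from 0.287 to 0.712, with no overlap. The fitted log2 fold change was 3.25 ± 0.43 (edgeR adjusted p = 5.27e-07), and at such low control counts its size depends on the constant added before taking logs. It was 4.41 with Msh3+/+ and 3.62 with Msh3+/-.

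Atraid (ENSMUSG00000013622, chromosome 5, 31048312 to 31054623) encodes a membrane protein named for its induction by all-trans retinoic acid. Its level in the controls was 33.1 CPM at the lowest, 37.2 at the median and 42.0 at the highest. With Q140 it was 27.8, 32.0 and 33.9 CPM in the same order. All Q140 libraries were below the control median, although the highest of them reached above the lowest control. Atraid fell by 0.25 on the log2 scale (SE 0.040, edgeR adjusted p = 0.000541), beside -0.21 with Msh3+/+ and -0.30 with Msh3+/-. It overlaps Slc5a6 on the opposite strand, which had a log2 fold change of 0.081.

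Tmc3 (ENSMUSG00000038540, chromosome 7, 83584927 to 83625614), of the transmembrane channel-like family, was the only called gene on another chromosome than Htt. The control libraries had from 0.124 to 0.566 CPM with a median of 0.295, and the Q140 libraries from 0.428 to 1.08 with a median of 0.780. The groups overlapped, and all 8 Q140 libraries were above the control median. The log2 fold change was 1.30 ± 0.22 (edgeR adjusted p = 0.00136). It was 1.36 both with Msh3+/+ and with Msh3+/-, and the difference from their mean was -0.06, with a 95% interval from -0.62 to 0.50. Q140 libraries had 1.35 ± 0.19 CPM with Msh3+/+ and 0.771 ± 0.216 with Msh3-/- (SD, n = 8), and their controls 0.512 ± 0.165 and 0.323 ± 0.132, so both levels were lower with Msh3-/-, a difference that was not tested. Tmc3 overlaps the antisense gene Gm16638, which had a log2 fold change of -0.135. When only the 16 libraries of the comparison were fitted, Tmc3 and Atraid kept their size (1.29 and -0.25), but their edgeR adjusted p was 0.115.

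**Figure D1:**
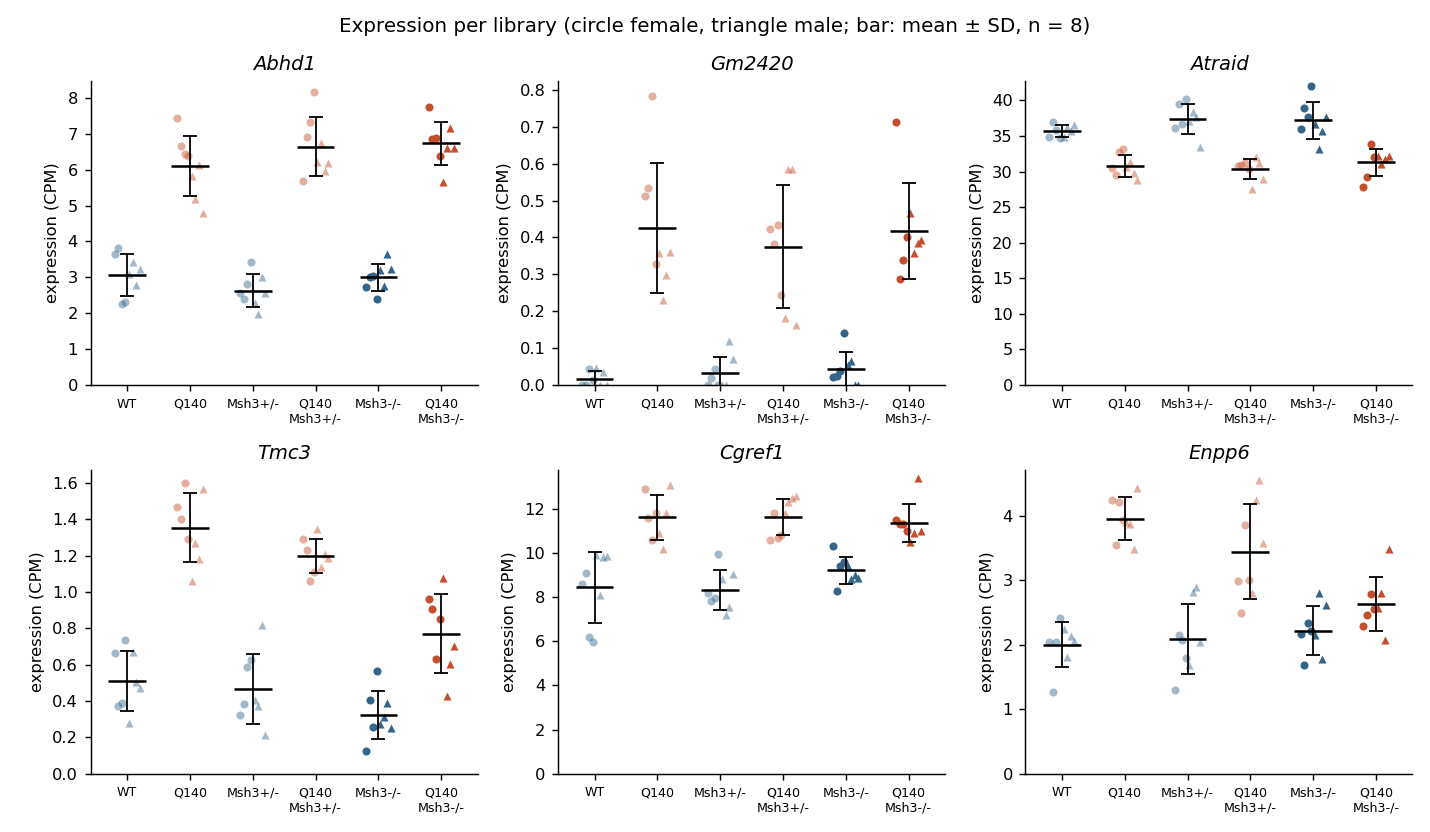
Expression in CPM of the 4 called genes and of Cgref1 and Enpp6, 1 point per library in each of the 6 genotypes (red with Q140, blue without, darker for Msh3-/-), with mean and SD. With Msh3-/-, Abhd1, Gm2420 and Cgref1 separate fully by Q140, while Enpp6 has 2.22 CPM without and 2.63 CPM with Q140.

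Of the 4 called genes, 3 lie near Htt on chromosome 5, where the knock-in is. Of 333 genes tested within 20 Mb of Htt, 3 were called and 32 (9.61%) had an unadjusted p under 0.05, beside 6.12% on the rest of chromosome 5 and 6.75% on the other chromosomes. Cgref1, Atraid and Mrpl33 lie 3.90, 3.79 and 3.21 Mb from the middle of Htt, on the same side as Gm2420 at 2.11 Mb and beside Abhd1. Cgref1, which encodes a calcium-binding growth regulator with EF-hand motifs, had 8.29 to 10.3 CPM in the controls (median 9.22) and 10.5 to 13.4 CPM with Q140 (median 11.1). The groups did not overlap, yet its log2 fold change of 0.31 ± 0.075 did not pass (edgeR adjusted p = 0.316). Mrpl33, a protein of the large mitochondrial ribosomal subunit, had 9.35 ± 1.02 and 11 ± 0.607 CPM (SD, n = 8; log2 fold change 0.24 ± 0.061, adjusted p = 0.358). Both were called with Msh3+/-, at 0.49 and 0.37, and Cgref1 also with Msh3+/+, at 0.47. The other genes whose groups did not overlap were Fbxw11 on chromosome 11, a subunit of a ubiquitin ligase (116 to 132 CPM in controls and 132 to 154 with Q140, adjusted p = 0.714), and the gene model Gm42531 (0.206 to 0.519 and 0.0713 to 0.204 CPM, adjusted p = 0.661). Fbxw11 and Gm42531 are outside the rule for named genes and were picked for this separation.

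**Figure D2:**
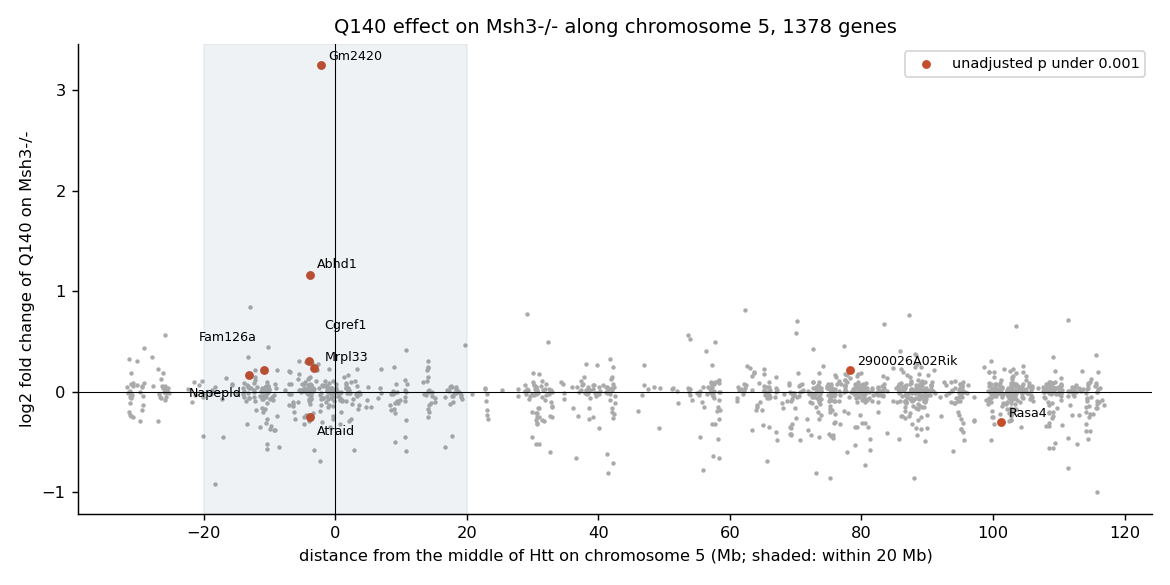
Log2 fold change of Q140 with Msh3-/- for the 1378 tested genes of chromosome 5 against their distance from Htt in Mb, with the 9 genes of unadjusted p under 0.001 in red. Of these 9, 7 lie within 20 Mb of Htt, and Rasa4 and 2900026A02Rik lie farther away.

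Beyond the called genes, none passed the adjusted threshold, and those with the smallest p-values had log2 fold changes from -0.90 to 0.97. They were picked by their p with Msh3-/-, a choice that favours larger effects here than in the other genotypes. Among higher genes, Napepld, the enzyme that releases N-acylethanolamines such as anandamide from membrane lipids, had 20.7 to 23.0 CPM in the controls and 22.3 to 26.1 CPM with Q140. Napepld lies on chromosome 5 within 20 Mb of Htt, at -13.2 Mb from its middle. All 8 Q140 libraries were above the control median of 21.8 CPM, and the log2 fold change was 0.16 ± 0.041 (edgeR adjusted p = 0.358). It was -0.04 with Msh3+/+ and -0.07 with Msh3+/-, and the difference from their mean was 0.22 ± 0.051 (unadjusted p = 7.67e-05, edgeR adjusted p = 0.75). The controls labelled Msh3-/- were the lower group for this gene, at 21.8 ± 0.831 CPM beside 23.9 ± 1.9 in wild type (SD, n = 8).

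Ddx28, a helicase of mitochondrial ribosome assembly, had a log2 fold change of 0.20 ± 0.052, and Hnrnpa0, an RNA-binding protein, had 0.14 ± 0.037. Both were near 0 in the other genotypes, at -0.01 and 0.06 for Ddx28 and 0.04 and 0.00 for Hnrnpa0. For both, the controls labelled Msh3-/- were again the lower group. Ddx28 had 7.97 ± 0.573 CPM there beside 8.9 ± 0.584 in wild type, and Hnrnpa0 87.9 ± 4.18 beside 91.8 ± 5.27 (SD, n = 8). Cyp7b1, which hydroxylates oxysterols, had 0.24 ± 0.067. Slc45a3 had 0.97 ± 0.266 at under 1 CPM, and Fam126a, which encodes hyccin, a protein needed for myelination, had 0.22 ± 0.059. Fam126a also lies within 20 Mb of Htt, at -10.9 Mb from its middle. Pcdha5 had 0.31 ± 0.082, but it overlaps other alpha protocadherins on its own strand, so its count is uncertain. Their adjusted p ran from 0.389 to 0.424.

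Among lower genes, Glul, glutamine synthetase of astrocytes, had 1560 to 1990 CPM in the controls (median 1750) and 1520 to 1640 CPM with Q140 (median 1570). All 8 Q140 libraries were below the control median. The log2 fold change of -0.16 ± 0.039 (edgeR adjusted p = 0.316) stood beside -0.17 with Msh3+/+, where it was called, and -0.16 with Msh3+/-. Slc4a11, a membrane transporter of the bicarbonate transporter family, had 2.59 ± 0.571 CPM in controls and 1.6 ± 0.519 with Q140 (-0.67 ± 0.159, adjusted p = 0.3), with -0.51 and -0.55 in the other genotypes. Sipa1l1, a postsynaptic Rap GTPase activator, had -0.13 ± 0.032 and showed -0.12 in both others. Gsg1l, an auxiliary AMPA receptor subunit, had -0.18 ± 0.047.

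The remaining lower genes differed more between genotypes, which their choice by p with Msh3-/- favours. Rasa4, a calcium-dependent Ras GTPase activator on chromosome 5, had -0.30 ± 0.075 here, -0.12 with Msh3+/+ and 0.12 with Msh3+/-. Ehhadh, a peroxisomal enzyme of fatty acid oxidation, had -0.37 ± 0.1 here and -0.03 and -0.05 in the others. For both, the controls labelled Msh3-/- were higher than wild type. Rasa4 had 9.34 ± 1.86 CPM beside 7.62 ± 1.12, and Ehhadh 2.78 ± 0.465 beside 2.33 ± 0.267 (SD, n = 8). Tex9, the antisense gene Gssos2 and Trmt13, a tRNA methyltransferase, had -0.25, -0.90 and -0.25, and between -0.08 and 0.07 in both others. Megf11, a receptor-like protein that spaces neurons in the retina, had -0.30 ± 0.082, beside -0.24 with Msh3+/+ and -0.09 with Msh3+/-. For each of these 6, the edgeR adjusted p lay between 0.316 and 0.415, and none had a called difference between Msh3 genotypes.

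The width of the intervals shows what could be seen. Over all genes, 75.2% had a 95% interval that stayed within ±0.5 on the log2 scale. Among the 10104 genes with a mean of at least 10 CPM, 99.2% stayed within ±0.5 and 93% within ±0.25. These are intervals of single genes without allowance for their number, so larger differences in some genes are not excluded. Smaller differences were called where the spread was narrow, as for Atraid.

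Genes that respond to Q140 in the presence of Msh3 mostly kept their direction with Msh3-/-, with smaller values for several of them. Q140 against its control called 20 genes with Msh3+/+ (0.102%) and 10 with Msh3+/- (0.0512%). Averaged over those genotypes, 16 against 16 libraries, it called 135 genes (0.691%), 53 higher and 82 lower. The libraries labelled Msh3-/- lay outside the contrast that chose these genes. They entered the same fit, though, and so shared its filter, scaling and estimate of spread. With Msh3-/-, 116 of these 135 genes had the same direction. Of the 135, 51 also had an unadjusted p under 0.05 in that direction, and 1 had such a p in the opposite direction. The median log2 fold change of the 135 genes, signed by the direction elsewhere, was 0.08. In the choosing libraries it was 0.158, a value enlarged by the choice. With a term for plate column 67 genes were called there and the median with Msh3-/- was 0.124, and without the libraries that stood apart 19 were and it was 0.192. More of the libraries that stood apart were controls than Q140 libraries. The 3 pituitary genes had a median of -3.111 in the contrast used for choosing. How far traces of other tissues entered the 135 genes was not tested. Without the 8 genes near Htt, 108 of 127 had the same direction, with a median of 0.079.

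Per library, the signed median of the 131 genes not called here ran from -0.076 to 0.062 in the controls and from 0.032 to 0.12 with Q140. The groups overlapped, with controls F1 and F4 at 0.062 and 0.041 and Q140 M4 at 0.032. Sets free of that enlargement were read in the same way, outside 20 Mb of Htt. The 81 genes of unadjusted p under 0.001 with Msh3+/+ had a signed median of 0.11 with Msh3+/- and 0.087 with Msh3-/-, with 74 and 67 in the same direction. The 56 such genes of Msh3+/- had 0.125 with Msh3+/+ (50 in the same direction) and 0.073 with Msh3-/- (46). Conversely, the 31 such genes of Msh3-/- had 0.123 with Msh3+/+ and 0.102 with Msh3+/-, where 28 and 25 kept the direction. In each of these readings most genes had the same direction. The Msh3-/- median was the lower one in both sets where it was read beside another genotype, and this difference between medians was not tested.

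**Figure D3:**
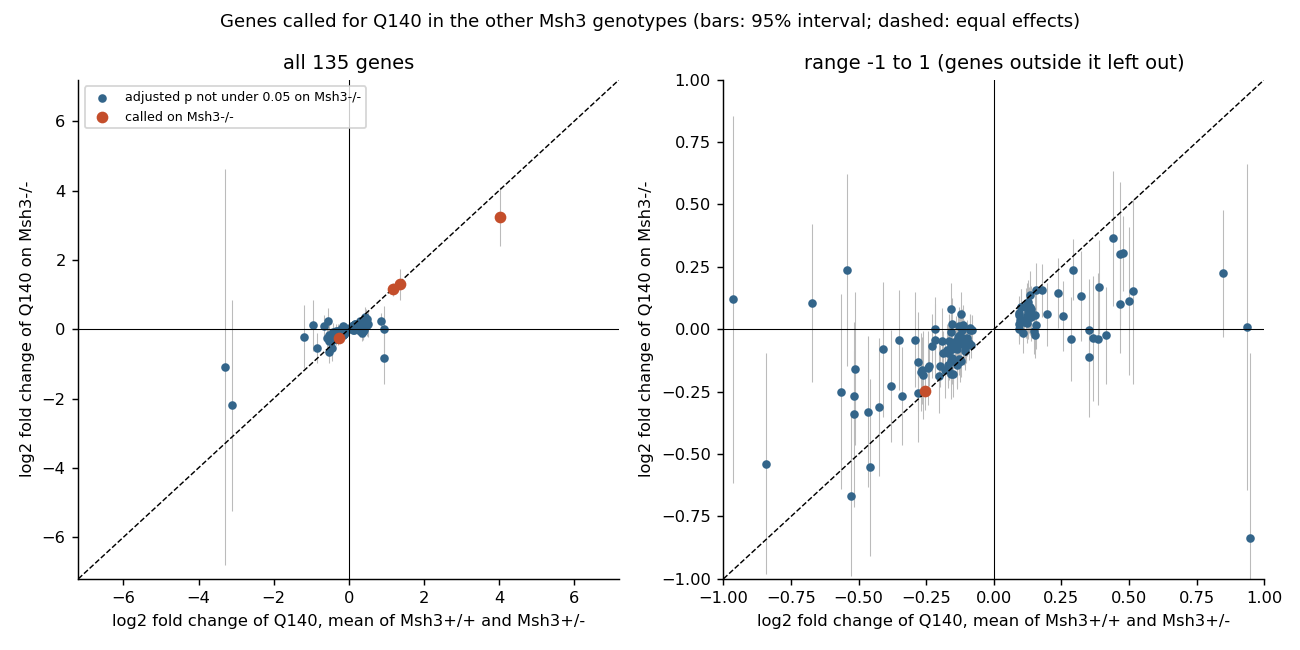
Log2 fold change of Q140 with Msh3-/- (y, bars 95% interval) against the mean of Msh3+/+ and Msh3+/- (x) for the 135 genes called there, in full and between -1 and 1; red points are the 4 genes called with Msh3-/-. Of the 135 genes, 116 lie on the same side of 0 on both axes, and many lie nearer 0 than the dashed line of equal effects.

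Among genes with smaller values were 3 of the oligodendrocyte lineage, the cells that make myelin. Enpp6, a choline phosphodiesterase that marks newly forming oligodendrocytes, had 1.68 to 2.80 CPM in the controls labelled Msh3-/- (median 2.19) and 2.07 to 3.48 CPM with Q140 (median 2.57). These ranges overlapped over most of their length. In Q140 libraries with Msh3+/+ it had 3.49 to 4.43 CPM, above every one of their wild-type controls at 1.26 to 2.42. The log2 fold change was 0.22 ± 0.127 with Msh3-/-, 0.97 ± 0.12 with Msh3+/+ and 0.73 ± 0.124 with Msh3+/-. The difference from Msh3+/+ was -0.74 ± 0.176, with a 95% interval from -1.09 to -0.39 (unadjusted p = 0.000102), and from Msh3+/- -0.50 ± 0.178. Over all genes neither passed, with edgeR adjusted p of 0.772 and 0.919.

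Zfp488, a transcription factor of oligodendrocyte differentiation, had 2.22 ± 0.312 CPM in the controls and 2.16 ± 0.23 with Q140 (SD, n = 8). Its log2 fold change was -0.03 ± 0.096, where it was 0.49 with Msh3+/+ and 0.34 with Msh3+/-. The difference from Msh3+/+ was -0.52 ± 0.133 (edgeR adjusted p = 0.949). Anln, which encodes the actin-binding protein anillin and is abundant in myelinating cells, had 0.10 ± 0.098 here and 0.45 and 0.48 in the others. Its difference from their mean was -0.36 ± 0.12 (adjusted p = 0.995). All 3 genes were among those chosen for their response in the other genotypes, which enlarges these differences.

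Of the other genes called in the other genotypes, singly or averaged, those given next had either a like value or one nearer 0. Slc1a2, the main glutamate transporter of astrocytes, had 3710 to 4760 CPM in the controls (median 4300) and 3460 to 4130 CPM with Q140 (median 3950), all 8 Q140 libraries below the control median. Its log2 fold change was -0.15 ± 0.041 (edgeR adjusted p = 0.424), beside -0.21 and -0.19. Camk2a, the alpha subunit of the synaptic kinase CaMKII, had -0.12 ± 0.033, beside -0.15 and -0.10. Plpp3, a lipid phosphatase of astrocytes, had -0.14 ± 0.04, beside -0.17 in both.

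Smaller values stood at Camk2n1, an inhibitor of CaMKII, with 2380 ± 103 CPM in controls and 2150 ± 145 with Q140. Its log2 fold change was -0.15 ± 0.039 with Msh3-/-, -0.31 with Msh3+/+ and -0.16 with Msh3+/-, and the difference from Msh3+/+ was 0.17 ± 0.056 (edgeR adjusted p = 1). Ddit4l, an inhibitor of mTORC1 signalling, went from 48.7 ± 7.36 to 40.4 ± 5.0 CPM (-0.27 ± 0.09), beside -0.58 and -0.45. The neuropeptide gene Cartpt had 5.67 ± 1.16 and 5.51 ± 0.487 CPM (-0.04 ± 0.1), beside -0.49 and -0.22. Slc4a4, an astrocytic bicarbonate transporter, had -0.08 ± 0.04, beside -0.18 and -0.13. H2-Bl and H2-T-ps, whose reads are hard to place within the MHC class I family, had 0.11 ± 0.158 and -0.16 ± 0.153, beside -0.82 and -0.70 with Msh3+/+. The gene model C230034O21Rik had 0.17 ± 0.093, beside 0.53 and 0.25.

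**Figure D4:**
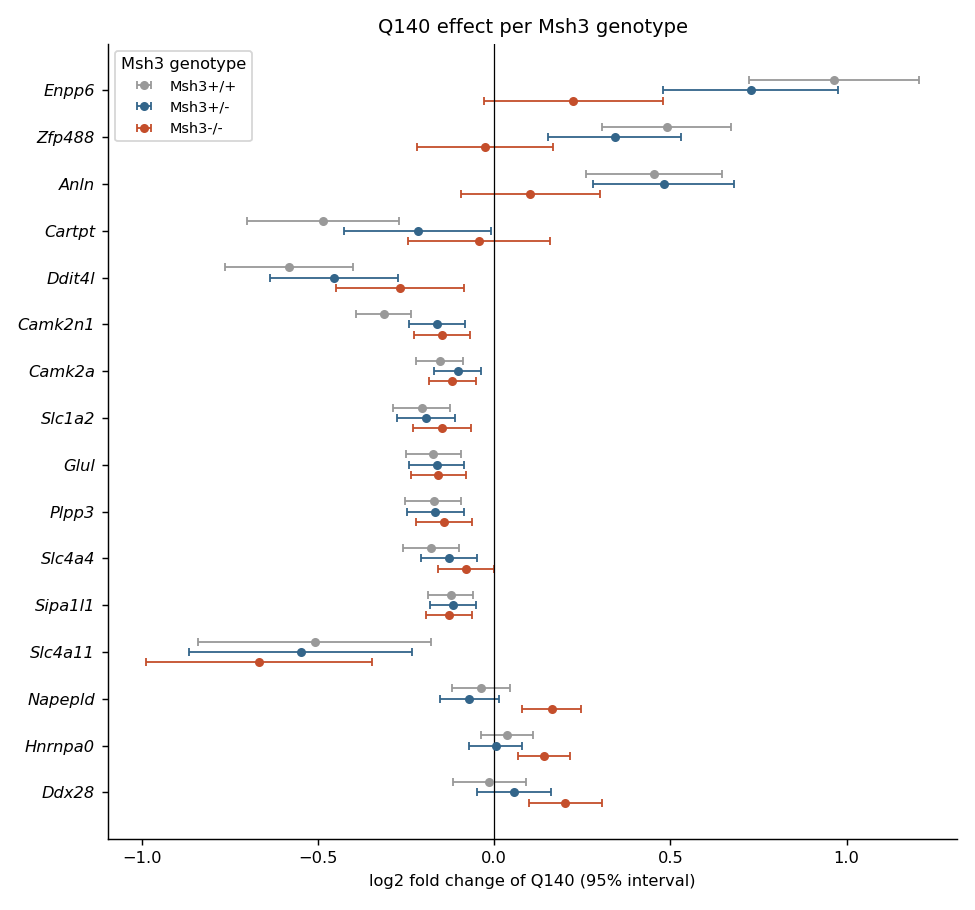
Log2 fold change of Q140 with its 95% interval for 16 genes in each Msh3 genotype. Enpp6, Zfp488, Anln and Cartpt have intervals that include 0 with Msh3-/- but not in the other genotypes. Glul, Slc1a2, Camk2a, Plpp3 and Sipa1l1 have similar values in all of them.

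Tested gene by gene over the whole table, 0 genes were called for a difference of the Q140 effect between Msh3 genotypes. These tests were less precise than that of the effect itself. The median SE was 0.104 for the difference from Msh3+/+ or Msh3+/- and 0.0731 for the effect with Msh3-/-, so differences may have gone uncalled. With Msh3-/- against Msh3+/+, 626 genes (3.2%) had an unadjusted p under 0.05 for the difference, and the smallest edgeR adjusted p was 0.772. Against Msh3+/- there were 982 (5.02%) with a smallest adjusted p of 0.919, and against the mean of both 853 (4.36%) with 0.699. DESeq2 also called 0 genes in each difference from a single genotype. Among the 135 genes, 36 had an unadjusted p under 0.05 for the difference from the mean, and in all 36 the effect was smaller with Msh3-/-. The choice of these genes by their effect in the other genotypes favours that direction.

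Gene lists for cell types and pathways are described by counts and medians, beside the median of -0.001 over all genes, of which 49.5% lay above 0. No list had a called member with Msh3-/-. Astrocyte genes lay lower together: 19 of 23 had a log2 fold change below 0, with a median of -0.082, and 10 of 23 had an unadjusted p under 0.05, all lower, beside 3.46% of all genes. These were led by Glul, Slc1a2 and the gap junction gene Gja1 (-0.15 ± 0.046, from 163 to 147 CPM). Sparcl1, Ttyh1, Aldoc, Slc1a3, Ntsr2, Clu and Slc4a4 followed, from -0.08 to -0.12. The list had medians of -0.092 with Msh3+/+ and -0.098 with Msh3+/-, where 11 of 23 had such a p, and 0 of 23 differed from the mean of both at an unadjusted p under 0.05.

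The summed level of the 23 astrocyte genes was 12600 to 15400 CPM in the controls (median 14400) and 12400 to 14100 CPM with Q140 (median 13200). The groups overlapped. In tissue RNA, fewer cells of a type and less RNA per cell cannot be told apart. The count of 10 came to 4 without control M3, 6 without Q140 F3 and 6 with a term for plate row, with a median between -0.093 and -0.064 over the 16 fits that left out 1 library. Of the reactive astrocyte genes, 0 of 19 had an unadjusted p under 0.05, and their median of 0.059 was -0.012 without Q140 M3. It was -0.083 in females and 0.046 in males. Serpina3n, a protease inhibitor of reactive astrocytes, ran from 8.24 to 49.3 CPM with Q140 (median 9.82) and from 8.49 to 11.5 CPM without.

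The other glial lists had medians from -0.027 to 0.005. Oligodendrocyte precursor and differentiation genes had a median of -0.025 over 25 genes, with 0 higher and 1 lower at an unadjusted p under 0.05. With Msh3+/+ 4 were higher and 2 lower at that p (median -0.021), and with Msh3+/- 3 were higher and 1 lower (median 0.012). The lower gene was Ptprz1, a receptor phosphatase (-0.11 ± 0.044). Myelin genes had a median of -0.027 over 24 genes, with 2 lower, Tspan2 (-0.16 ± 0.067) and Gjc3 (-0.17 ± 0.081), where 8 were lower with Msh3+/+ and 3 higher and 3 lower with Msh3+/-. The myelin median ran from -0.079 without control M1 to -0.004 without control F3, and was -0.113 with a term for plate row. Microglial genes had a median of 0.005 over 19 genes, with 0 at that p.

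Vascular genes had a median of -0.039 over 21 genes. The one at an unadjusted p under 0.05 was Flt1, a VEGF receptor, at 71.6 to 93.6 CPM in the controls and 26.2 to 86.9 CPM with Q140 (-0.52 ± 0.16, edgeR adjusted p = 0.659). Its Q140 libraries spread far wider than the controls, with SDs of 22.2 and 8.4 CPM. Genes of the choroid plexus, pituitary, blood and meninges had medians of -0.18, -1.091, -0.75 and -0.148 over 8, 3, 4 and 12 genes, with 0 at that p. Their summed levels were 3.54 to 16.2, 0.273 to 3.74, 0.154 to 22.3 and 132 to 759 CPM over the 16 libraries, so traces of these tissues varied from library to library.

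Neuronal lists were also near 0. Upper-layer, layer 5 and layer 6 genes had medians of 0.000, 0.001 and -0.004 over 21, 14 and 14 genes, and GABAergic interneuron genes 0.015 over 27. Stard8, a GTPase activator listed for upper layers, had 63.0 ± 5.65 CPM in controls and 55.6 ± 2.4 with Q140 (-0.18 ± 0.05, edgeR adjusted p = 0.424). Ntsr1, a marker of layer 6 neurons that project to the thalamus, had 0.35 ± 0.144, and Tbr1, a transcription factor of the same layer, -0.08 ± 0.039. Genes of striatal projection neurons, many of which are also expressed in cortex, had a median of -0.036 over 19 genes. In that list Arpp21 (-0.10 ± 0.045), Ppp1r1b (-0.13 ± 0.057) and the enkephalin gene Penk (-0.15 ± 0.074) were lower at an unadjusted p under 0.05. Neuropeptide genes had a median of -0.006 over 16.

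Synaptic and signalling lists followed. Of 16 genes of CaMKII signalling, Camk2n1 and Camk2a had an unadjusted p under 0.05 with Msh3-/-, both lower, while 7 were lower with Msh3+/+ and 6 with Msh3+/-. The list median was 0.007. Glutamate receptor and postsynaptic genes had a median of -0.018, with 25 of 36 below 0, GABA-A receptor genes 0.006 over 13, and potassium and sodium channels 0.011 over 38. In the channel list 2 were higher at an unadjusted p under 0.05, Kcnj4 (0.15 ± 0.049) and Kcnd2 (0.09 ± 0.037), and 0 lower, where 7 were lower with Msh3+/+ and 10 with Msh3+/-. For immediate early genes, which neuronal firing switches on, 21 of 26 values lay above 0 and the median was 0.118. Only Egr4 had such a p, at 23.5 ± 5.73 and 31.0 ± 7.87 CPM (0.39 ± 0.19), and the list had -0.157 with Msh3+/- and 0.169 with Msh3+/+. Its median here was 0.055 to 0.078 without control F2, M2 or M3 or Q140 F2 or M1, 0.197 and 0.204 without control M1 and F3, and 0.022 with a term for plate row.

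Lists of protein production and quality control had medians a few percent higher, here and in the other genotypes. Over all genes with Msh3-/-, 3.31% were higher and 3.46% lower at an unadjusted p under 0.05. With Msh3+/+ and Msh3+/- the medians were 0.061 and 0.069 for ribosomal protein genes. They were 0.053 and 0.02 for proteasome genes and 0.047 and 0.017 for heat shock and chaperone genes. For cytosolic ribosomal protein genes 45 of 58 lay above 0 and the median was 0.076, with 7 higher and 3 lower at an unadjusted p under 0.05. Rps19 (0.15 ± 0.062) was among the higher, and the lower were Rps23, Rpl13 and Rpl27, with control means from 1.17 to 5.65 CPM. Many ribosomal protein genes have processed copies that share reads. The count of 7 ranged widely when 1 library was left out. It came to 0 to 4 without control M4, F2, M2 or M1 or Q140 F3, and to 11 to 22 without control F3 or M3 or Q140 F1 or M2. Over the alternatives it ran from 1, without the libraries that stood apart, to 8, without a filter, and was 3 with a term for plate column. For proteasome genes 27 of 31 lay above 0, the median was 0.036 and 5 were higher at that p, among them the core subunit Psmb4 at 52.0 ± 3.94 and 56.9 ± 2.74 CPM (0.13 ± 0.048).

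For heat shock and chaperone genes 25 of 30 lay above 0, the median was 0.042 and 6 were higher. These were Tcp1, Cct3 and Cct5 of the chaperonin ring that folds actin and tubulin, the mitochondrial Hspa9, the co-chaperone Dnajb1 and the constitutive Hspa8 at 477 ± 45.3 and 513 ± 38.3 CPM (0.10 ± 0.051). The proteasome count of 5 came to 8 without control F3 and to 1 or 2 without Q140 F3, Q140 M4, control M1 or control M2. With a term for plate column it came to 1. The chaperone count of 6 came to 2 or 3 without Q140 F1, Q140 F2, control M1 or control M3, and to 1 with a term for plate row. Nuclear genes of oxidative phosphorylation had 50 of 57 above 0, a median of 0.039 and 2 higher, Cox5a and Ndufs7, a count that ran from 0 without Q140 F3 to 13 without control F3. The list had medians of 0.042 with Msh3+/+ and 0.046 with Msh3+/-. With a term for plate row the median with Msh3-/- was 0.018 and 38 of 57 were above 0. The mitochondrially encoded genes lay on the other side, with 12 of 13 below 0 and a median of -0.088, beside -0.171 with Msh3+/+ and 0.024 with Msh3+/-. That median was -0.047 and -0.045 without Q140 M3 and M1, -0.145 without Q140 F4, and -0.050 with a term for plate row.

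The remaining pathways had at most 3 genes each at an unadjusted p under 0.05. Of the cholesterol genes 23 of 28 lay above 0, with a median of 0.043 and 1 at that p, the neuronal cholesterol hydroxylase Cyp46a1, which was lower (-0.08 ± 0.03). Mismatch repair genes and modifiers of repeat expansion had a median of -0.014 over 28, with Rpa1 and Rrm2b higher at that p (0.11 ± 0.041 and 0.09 ± 0.037); they encode a part of the protein that coats single-stranded DNA and a ribonucleotide reductase subunit. mTORC1 pathway genes had 0.012 over 22, with 2 higher and 1 lower, autophagy genes 0.007 over 30, with 2 higher, and p53 response genes -0.006 over 20. Interferon and MHC class I genes had 0.040 over 22, with H2-K1 higher at that p (0.26 ± 0.099). Clock genes had 0.051 over 18, with Npas2 (-0.15 ± 0.05) and Per3 (-0.17 ± 0.081) lower, and the clustered beta protocadherins 0.020 over 21, with 1 higher and 1 lower.

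**Figure D5:**
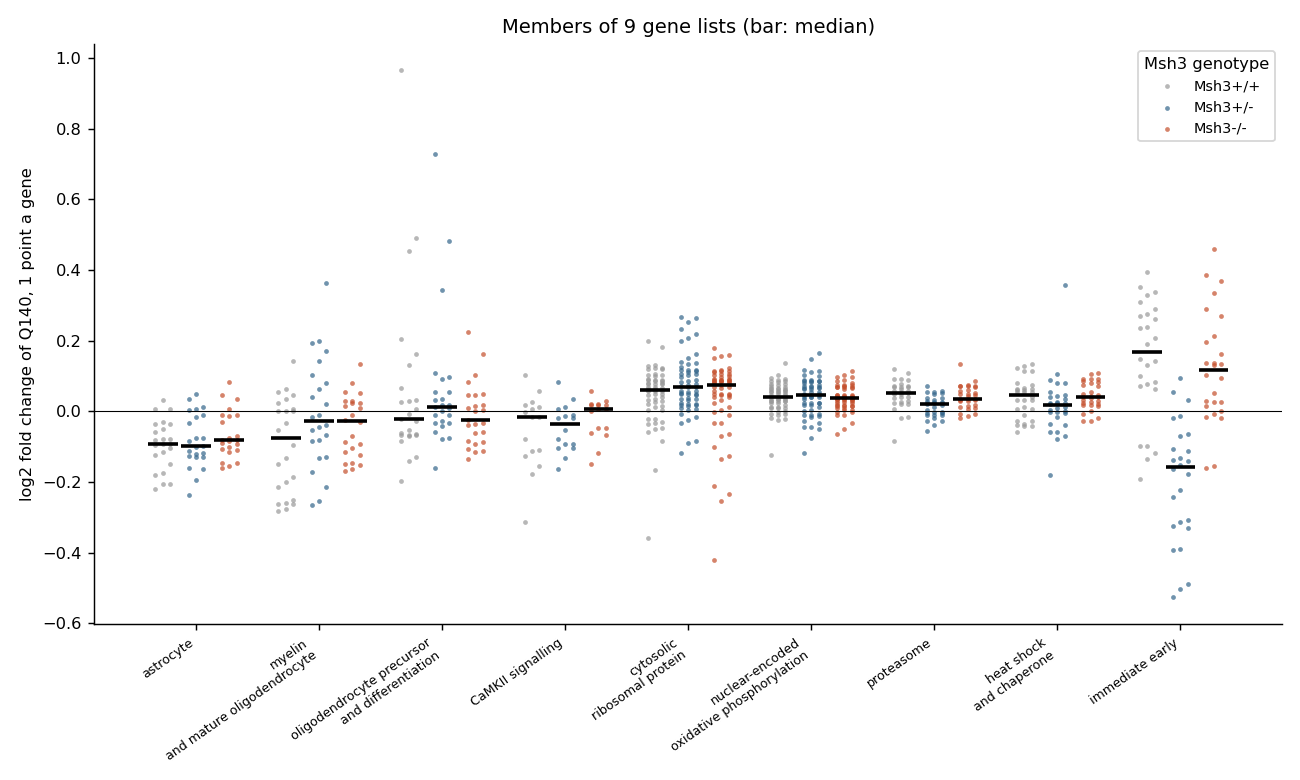
Log2 fold change of Q140 for every tested member of 9 gene lists, 1 point per gene, in each Msh3 genotype, with the median as a bar. Astrocyte medians lie between -0.098 and -0.082 in all genotypes. Enpp6 is the highest point of the precursor list with Msh3+/+ (0.97), Msh3+/- (0.73) and Msh3-/- (0.22).

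The sexes were compared with 4 libraries in each cell of the design. By edgeR, 0 genes were called for a difference of the Q140 effect with Msh3-/- between females and males. The smallest adjusted p was 1, and 423 genes (2.16%) had an unadjusted p under 0.05. The median SE of this difference was 0.146. In the fit of all 48 libraries with group and sex crossed, 3 genes were called in females and 2 in males. Abhd1 and Gm2420 were called in both. Abhd1 had 1.32 ± 0.133 in females and 1.02 ± 0.126 in males. Atraid had -0.33 ± 0.056 in females, where it was called, and -0.17 ± 0.055 in males. Gsg1l had -0.08 ± 0.064 and -0.28 ± 0.064, and Camk2n1 -0.09 ± 0.055 and -0.21 ± 0.055, in females and males. The astrocyte list had medians of -0.083 in females and -0.072 in males.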

How the data were processed

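Messenger RNA was measured by sequencing. The authors deposited raw counts for each Ensembl gene as whole numbers, beside FPKM values that were not used. Per the submitters' processing notes, the tools included HTSeq 0.12.3, SAMtools 1.10 and STAR 2.7.5c, with mm10 or GRCm38 as genome build; roles are not given. Libraries were made with a stranded kit, per the labels' protocols. The annotation release and the strand setting are not given in the sources used here. Coordinates are from GENCODE M21 on GRCm38.

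Genes were filtered with filterByExpr by group (minimum count 10, minimum total 15) and normalised by TMM. All 48 libraries entered 1 quasi-likelihood fit (edgeR 4.0.16) on group (6) and sex. Contrasts were tested two-sided and adjusted by Benjamini-Hochberg over all genes. For sexes, group and sex were crossed. The test was tried on simulated counts. Intervals are 95%, and spreads in CPM are SD. Nothing in the labels says that libraries of a group came from separate mice, so p-values measure the spread between these libraries.

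Genes named are Msh3, Htt, those called, the 12 higher and 12 lower of smallest p whose mean count was 20 or more, those called with Msh3+/+ or Msh3+/-, the 15 of smallest p over both, and members of lists; a few genes that the rule names are not reported here. The comparison, the lists and the rule were chosen with earlier results of these data known. Alternatives were another scaling, filter, tool (DESeq2 1.42.0, limma 3.58.1), set of libraries, plate or block term, and leaving out each library.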

Additional observations from a re-analysis of the deposited data

Results flagged for a closer look

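Of 82 groups of 8 libraries checked, for 41 named genes in the controls and the Q140 libraries labelled Msh3-/-, 6 held a library whose gap to its nearest neighbour took up an unusually large share of the range (over 0.526). Chance alone gives this in about 1 group in 20. Cgref1 was highest in Q140 M3 at 13.4 CPM, with the next at 11.5. Gm2420 was highest in Q140 F1 at 0.712 CPM, with the next at 0.465, and among the controls in F4 at 0.141 CPM, with the next at 0.066. Ddx28 was lowest in Q140 F4 at 7.76 CPM, with the next at 8.84. Hnrnpa0 was lowest in control F4 at 79.5 CPM, with the next at 87.2. Gssos2 was highest in control M1 at 1.62 CPM, with the next at 0.808. None of these genes but Gm2420 was called, and Gm2420 was called in each of the 16 fits that left out 1 library.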

How the results depend on the processing

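Over 11 alternatives the Q140 effect with Msh3-/- gave from 2 to 5 called genes, and 4 to 5 when 1 library was left out. Abhd1 was called in 11 of 11 alternatives, and Atraid, Tmc3 and Gm2420 in 10 of 11 each. All of them were called in 16 of 16 fits without 1 library. Fitting only the groups of the comparison left 2 calls, Abhd1 and Gm2420, and the cause was not tested. Gm2420 did not reach a filter of 1 CPM in 8 libraries. Trmt13 was called without control F3, Gm38169 without control M1, and 2900026A02Rik by DESeq2 and without control F4, Q140 F3 or Q140 M4. The number at an unadjusted p under 0.05 was 1323, and ran from 1068 to 1732 over the alternatives and from 1070 to 1955 with 1 library left out, the latter without control F3. The tests of a difference between Msh3 genotypes called 0 genes in each alternative and each fit without 1 library. The test of a sex difference called 0 genes except in DESeq2, which called 1 gene, Gm16867 (DESeq2 adjusted p = 0.000495). This gene had 0 counts in every male Q140 library and at most 98 in the others. Without 1 library edgeR called 0. With 1 library left out, the signed median of the genes called in the other genotypes stayed between 0.065 and 0.09. It moved to 0.124 with plate column as a factor, where 67 genes were chosen, and to 0.192 with the libraries that stand apart left out, where 19 were; DESeq2 chose 279, with 0.058. The number of genes chosen differs between these settings, and the cause was not tested. Anln, not called here, had -0.01 with females only (-0.014). In the other checks of single genes 380 kept their side of the threshold and their direction. The remaining 6 lost a call of Atraid or Tmc3, in the fit of 16 libraries or when a single sex was fitted alone.

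Replicate numbers are shared by the groups, but same-numbered libraries did not deviate together throughout (correlations from -0.0586 to 0.382). For M1, M3 and M4 the best match had the same number, and for the other numbers it had another. These correlations cannot tell whether the numbers pair libraries, and the main fit used no pairing. With a replicate block the calls numbered 4 and the signed median was 0.074, and no other call changed. Depth of 40.1 to 60.5 M counts limits genes under about 1 CPM most.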
